A study of Homo sapiens with 18 samples.

Results

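The BCL2 family decides whether a cell keeps its mitochondria sealed or lets them release cytochrome c and die by apoptosis. Its members were taken as the rows of the count table named BCL2, BCL2L1, BCL2L2, MCL1, BAX, BAK1, BID, BCL2L11, BBC3 and PMAIP1, which are 10 of the 44016 features in the table, and each was present once. BCL2, BCL2L1 (which encodes BCL-XL), BCL2L2 (BCL-w) and MCL1 are anti-apoptotic and hold the effectors in check. BAX and BAK1 are the effectors, which open pores in the outer mitochondrial membrane. BID, BCL2L11 (BIM), BBC3 (PUMA) and PMAIP1 (NOXA) are BH3-only proteins, which bind and neutralise the anti-apoptotic members or activate the effectors.

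The family was followed in A549, a human lung adenocarcinoma cell line, by sequencing of poly(A)-selected mRNA. The groups were A549 with a stable S100A16 knockdown (KD) given 100 µM H2O2 for 2 h, the same KD untreated, a stable hnRNPM KD untreated, a stable MagoHB KD untreated, wild type (WT) given 100 µM H2O2 for 2 h, and WT untreated. Each of the 6 groups held 3 libraries labelled as replicates, 18 in all. S100A16 binds calcium, hnRNPM binds RNA and takes part in splicing, and MagoHB belongs to the core of the exon junction complex. The KDs were set against WT cells, so that in those comparisons carrying a KD construct and losing the target cannot be told apart, and the sources used here name neither the KD reagent nor the number of clones. H2O2 is an oxidant that can trigger apoptosis through mitochondria.

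Total counts were between 36612997 and 51406431 per library. The targeted mRNAs were low in their own KD. S100A16 was at 7.11% of WT in the untreated S100A16 KD and at 5.6% under H2O2, HNRNPM was at 20.8% in the hnRNPM KD, and MAGOHB, whose counts are uncertain because MAGOH is a near-identical copy, was at 34.8% in the MagoHB KD. MAGOHB was also at 44.4% of WT in the hnRNPM KD, and S100A16 at 51.1% in the MagoHB KD. All 6 epithelial markers were detected in every group, with summed levels of 4802 to 9587 CPM by total counts, while the 5 fibroblast markers summed to 24.1 to 59.8, the 5 leukocyte markers to 2.64 to 8.83 and the 4 endothelial markers to 0.169 to 1.01. The sums differed between groups: the epithelial markers were at 7991 to 9587 in the S100A16 KD with and without H2O2, against 4802 to 5440 in WT, and the leukocyte markers at 7.67 to 8.83, against 2.64 to 3.42. The part of these markers in the results was not tested. Replicate 1 of the untreated S100A16 KD, replicate 3 of the hnRNPM KD and replicate 2 of the MagoHB KD stood apart from their own groups: replicate pairs that held 1 of these differed by a chi-square per degree of freedom of 28.2 to 62.4, against 3.01 to 5.32 for all other pairs. Several results of the members are given with and without these libraries, while most values of the related gene lists are given with them only. The 3 libraries were picked from these same counts. A fit without them has fewer libraries and a spread made smaller by that choice, so its adjusted p can be too small.

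Levels below are CPM, counts scaled to the TMM-normalised library size, and each mean ± SD is over the 3 libraries of a group. Differences were tested with edgeR's quasi-likelihood F test with Benjamini-Hochberg adjustment over the 22382 genes that passed the filter on low counts, and all 10 members passed it. A gene was called where its adjusted p was under 0.05. In bulk RNA, a change in the number of cells in a given state and a change in RNA per cell cannot be told apart.

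BCL2L1, BCL2L2, MCL1 and BBC3 rose in the S100A16 KD, the hnRNPM KD and the MagoHB KD, all untreated, against untreated WT. PMAIP1 rose in the S100A16 and hnRNPM KDs, BID fell in the hnRNPM and MagoHB KDs, and the 6 group means of BAX lay between 57.7 and 71.4 CPM. In the untreated S100A16 KD 6 of the 10 members rose and 0 fell, where 52.3% of all genes tested were called, 27.6% higher and 24.8% lower. Under H2O2 6 members rose and 0 fell in the S100A16 KD, where 52.5% of all genes were called, 27.9% higher and 24.7% lower. In the hnRNPM KD 6 members rose and 1 fell, where 49.1% of all genes were called, 25.4% higher and 23.8% lower. In the MagoHB KD 6 rose and 2 fell, where 45.5% were called, 23.3% higher and 22.3% lower. The median log2 fold change of the members was 0.44 in the untreated S100A16 KD, 0.30 in the S100A16 KD given H2O2, 0.45 for hnRNPM and 0.48 for MagoHB, against 0.06, 0.06, 0.02 and 0.04 over all genes in the same comparisons. These comparisons other than the one under H2O2 share the 3 untreated WT libraries. Without the 3 libraries that stood apart, the untreated S100A16 KD had 6 members higher and 0 lower (55.4% of all genes called), the S100A16 KD with H2O2 had 7 and 0 (58.6%), the hnRNPM KD had 6 and 1 (50.9%) and the MagoHB KD had 6 and 3 (44.7%).

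**Figure D1:**
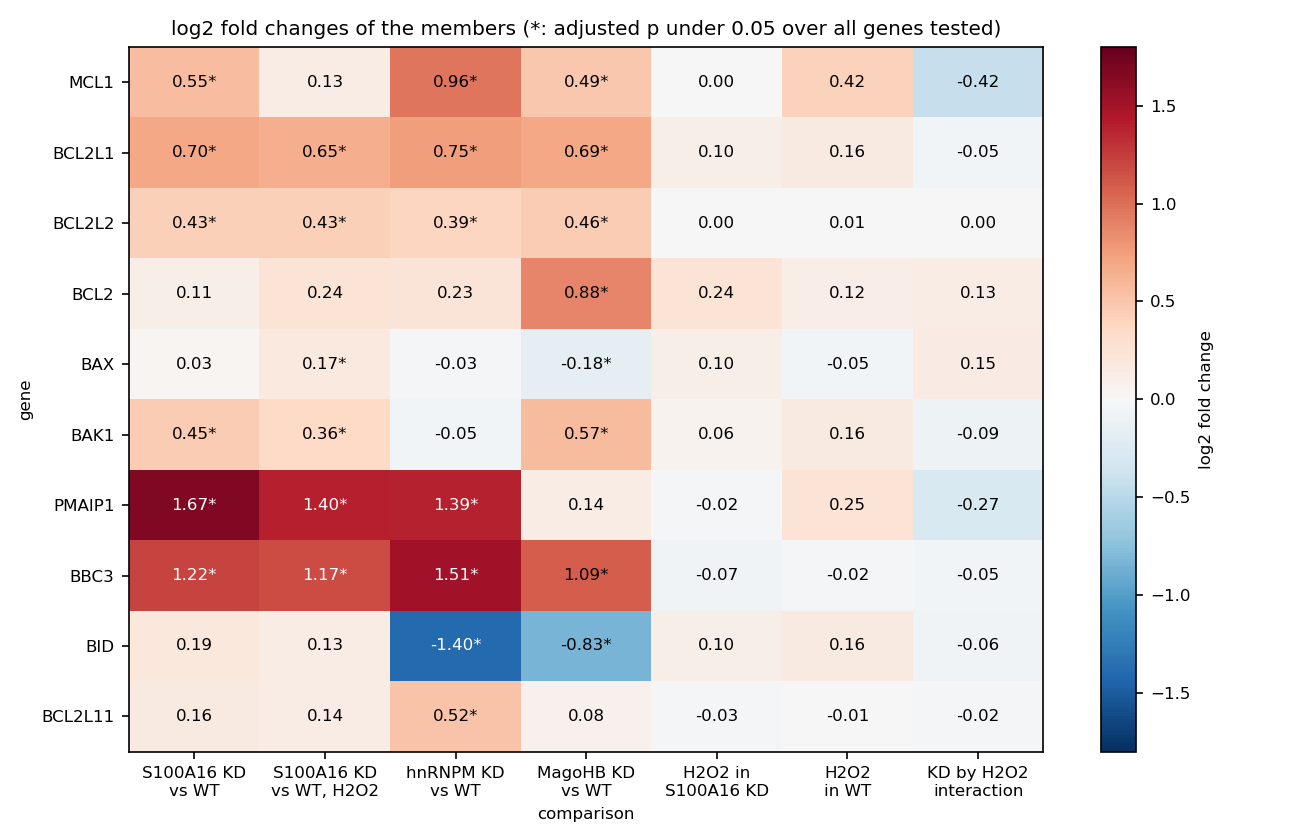
Heat map of the log2 fold change of each member (rows) in 7 comparisons (columns), with an asterisk where the adjusted p was under 0.05. BCL2L1, BCL2L2 and BBC3 are red with an asterisk in all 4 KD columns, BID is blue in the hnRNPM and MagoHB columns at -1.40 and -0.83, and no cell in the 3 H2O2 columns has an asterisk.

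PMAIP1, at chr18:59899948-59904306 on the plus strand (GRCh38), whose protein NOXA binds mainly MCL1, varied most of the members, with a range of 1.68 between the highest and lowest group means on the log2 scale. Its level was 63.9, 64.9 and 69.3 CPM in untreated S100A16 KD cells, 39.3, 39.4 and 84.7 CPM in the hnRNPM KD and 13.3, 39.4 and 15.6 CPM in the MagoHB KD, against 20.7, 21 and 20.6 CPM in untreated WT. The S100A16 KD and hnRNPM KD libraries were all above those of WT, while the MagoHB KD had 1 library above and 2 below. The log2 fold change was 1.67 ± 0.37 (SE) in the S100A16 KD, a 3.18-fold rise (adjusted p = 0.00201), and 1.39 ± 0.37 in the hnRNPM KD (adjusted p = 0.00698). The MagoHB KD gave 0.14, with a 95% interval of -0.58 to 0.87 (adjusted p = 0.785). Without the 3 libraries that stood apart, PMAIP1 was called lower in the MagoHB KD at -0.52 (adjusted p = 1.28e-08) and higher in the hnRNPM KD at 0.92 (adjusted p = 1.92e-18). Leaving out MagoHB KD replicate 2 alone also gave -0.52, with an adjusted p of 0.193. With 1 library left out in turn, the hnRNPM KD value was called in all 6 fits, with adjusted p of up to 0.0426.

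BBC3, at chr19:47220822-47232766 on the minus strand (GRCh38), whose protein PUMA binds all the anti-apoptotic members, was raised in every KD. Its libraries held 19.1, 19.1 and 20.2 CPM in untreated S100A16 KD cells, 19.3, 20.3 and 31.8 CPM in the hnRNPM KD and 11.4, 26.2 and 15.4 CPM in the MagoHB KD, against 7.61, 9.48 and 7.99 CPM in untreated WT. No KD library overlapped the WT libraries. BBC3 rose 2.33-fold in the S100A16 KD (adjusted p = 0.00109), 2.85-fold in the hnRNPM KD (adjusted p = 0.00021) and 2.12-fold with the MagoHB KD (adjusted p = 0.00317). Without the libraries that stood apart its log2 fold change was 1.21 in the S100A16 KD, 1.24 for the hnRNPM KD and 0.69 for the MagoHB KD, against 1.22, 1.51 and 1.09 with them, and it was called in each.

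Promoter sequences of RefSeq (GRCh38.p14) were found for 8 of the 10 members, all but BCL2L2 and MCL1. Where a gene had several promoters, only the one farthest upstream was taken, also for the shares over all promoters. BID had 5 promoters and BCL2L1 had 2, so the others of these genes were not searched. The upstream regions of PMAIP1, BBC3 and BID, the 3 members whose group means ranged most widely, are shown with that of BCL2L1, an anti-apoptotic gene that rose in every untreated KD, so that the genes can be read side by side. Each runs 5′ to 3′ on the strand of the gene and ends at the base before the gene's first base in the count table. PMAIP1 lies at chr18:59899746-59899947 on the plus strand, BBC3 at chr19:47232767-47232917 on the minus strand, BID at chr22:17774771-17774915 on the minus strand and BCL2L1 at chr20:31723990-31724213 on the minus strand. Capitals mark the SP1 box GGGCGG and the cyclic AMP response element core TGACG on either strand.
PMAIP1: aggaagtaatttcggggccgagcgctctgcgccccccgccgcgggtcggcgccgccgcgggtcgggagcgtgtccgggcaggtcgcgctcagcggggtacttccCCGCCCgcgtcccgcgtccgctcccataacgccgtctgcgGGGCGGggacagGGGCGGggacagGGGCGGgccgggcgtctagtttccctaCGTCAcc
BBC3: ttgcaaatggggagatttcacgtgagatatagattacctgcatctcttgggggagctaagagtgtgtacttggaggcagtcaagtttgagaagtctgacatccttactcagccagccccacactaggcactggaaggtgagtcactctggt
BID: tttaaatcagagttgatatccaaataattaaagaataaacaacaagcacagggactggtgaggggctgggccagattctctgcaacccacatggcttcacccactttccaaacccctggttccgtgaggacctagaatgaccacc
BCL2L1: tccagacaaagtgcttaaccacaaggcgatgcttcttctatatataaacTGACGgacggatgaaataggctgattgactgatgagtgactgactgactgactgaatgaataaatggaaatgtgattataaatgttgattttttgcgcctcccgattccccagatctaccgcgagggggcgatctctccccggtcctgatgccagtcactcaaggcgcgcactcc

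The 4 sequences differ in base composition and in the letters they hold. The PMAIP1 run is 76.2% G and C, with 4 SP1 boxes and 1 cyclic AMP response element core, while the BBC3, BID and BCL2L1 runs are 49.0%, 46.9% and 47.8% G and C. The promoters taken for BBC3 and BID had no match to any of 8 motifs searched in the 250 bases before the start. Those were the CArG box and the interferon-stimulated response element core, both by name, the EGR1 site GCGNGGGCG, the SP1 box, the cyclic AMP response element core, the CEBP-ATF element TGATGCAA, the FOXO site TGTTTAC and the ETS core CCGGAAG, on both strands. An SP1 box was present in 4 of the 8 member promoters and in 42.2% of 27305 promoters, and a cyclic AMP response element core was present in 4 of 8 and in 21.6%. The EGR1 site was matched in 1 member promoter, that of BCL2L11, overlapping an SP1 box there, and in 8.23% of all. The remaining shares were 1.15% for the CArG box (BCL2), 3.01% for the FOXO site (BCL2L11), 0.828% for the CEBP-ATF element, 3.07% for the interferon core and 8.78% for the ETS core, the last 3 with no match among the members.

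BID, at chr22:17734138-17774770 on the minus strand, which is cleaved by caspase-8 and carries death receptor signals to mitochondria, went the other way. Its libraries held 7.87, 6.62 and 8.25 CPM in the hnRNPM KD and 12.5, 10.5 and 10.9 CPM in the MagoHB KD, against 20.4, 20.5 and 19.2 CPM in untreated WT. All 6 KD libraries were below the WT libraries, and the 3 libraries of the hnRNPM KD were below those of the MagoHB KD. BID fell by 1.40 on the log2 scale in the hnRNPM KD, to 0.38 times the WT level (adjusted p = 1.03e-11), and by 0.83 in cells with less MagoHB (adjusted p = 3.8e-08). In the untreated S100A16 KD the level was 22.8 ± 0.348 CPM, against 20 ± 0.74 CPM in WT (log2 0.19, adjusted p = 0.0515). That value was called higher with total counts alone (log2 0.43, adjusted p = 0.000112), with counts halved (adjusted p = 0.0333) and with only the libraries compared (adjusted p = 0.0125). The difference between KDs was itself called, with S100A16 KD over hnRNPM KD at 1.58 (adjusted p = 6.98e-13), S100A16 KD over MagoHB KD at 1.01 (adjusted p = 7.3e-10) and hnRNPM KD over MagoHB KD at -0.57 (adjusted p = 9.05e-06). BID values did not rest on the libraries that stood apart, since without them the falls were -1.46 for the hnRNPM KD and -0.77 for the MagoHB KD.

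BCL2L11, whose protein BIM binds all anti-apoptotic members, was called in the hnRNPM KD alone among the 4 KD comparisons with WT. Its libraries held 21.6, 21.2 and 17.6 CPM in the hnRNPM KD, against 14.3, 13.4 and 14.5 CPM in untreated WT, with no overlap. The log2 fold change was 0.52 ± 0.09 (adjusted p = 3.88e-05). Elsewhere the group means were 15.7 ± 1.67 CPM in untreated cells of the S100A16 KD and 14.8 ± 0.734 CPM in the MagoHB KD, against 14.1 ± 0.576 CPM in WT, with adjusted p of 0.129 and 0.505. BCL2L11 was lower in the S100A16 KD than in the hnRNPM KD (log2 -0.36, adjusted p = 0.00164) and higher in the hnRNPM KD than in the MagoHB KD (log2 0.44, adjusted p = 0.000236). Scaled by total counts alone, which raises the median gene by 0.24 for S100A16 untreated, 0.18 for S100A16 with H2O2, 0.11 for hnRNPM and 0.21 for MagoHB, BCL2L11 was also called higher in the untreated S100A16 KD at 0.40, in the S100A16 KD with H2O2 at 0.33 and in the MagoHB KD at 0.29. It was also called in the untreated S100A16 KD without replicate 2 of that KD (log2 0.24, adjusted p = 0.041).

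**Figure D2:**
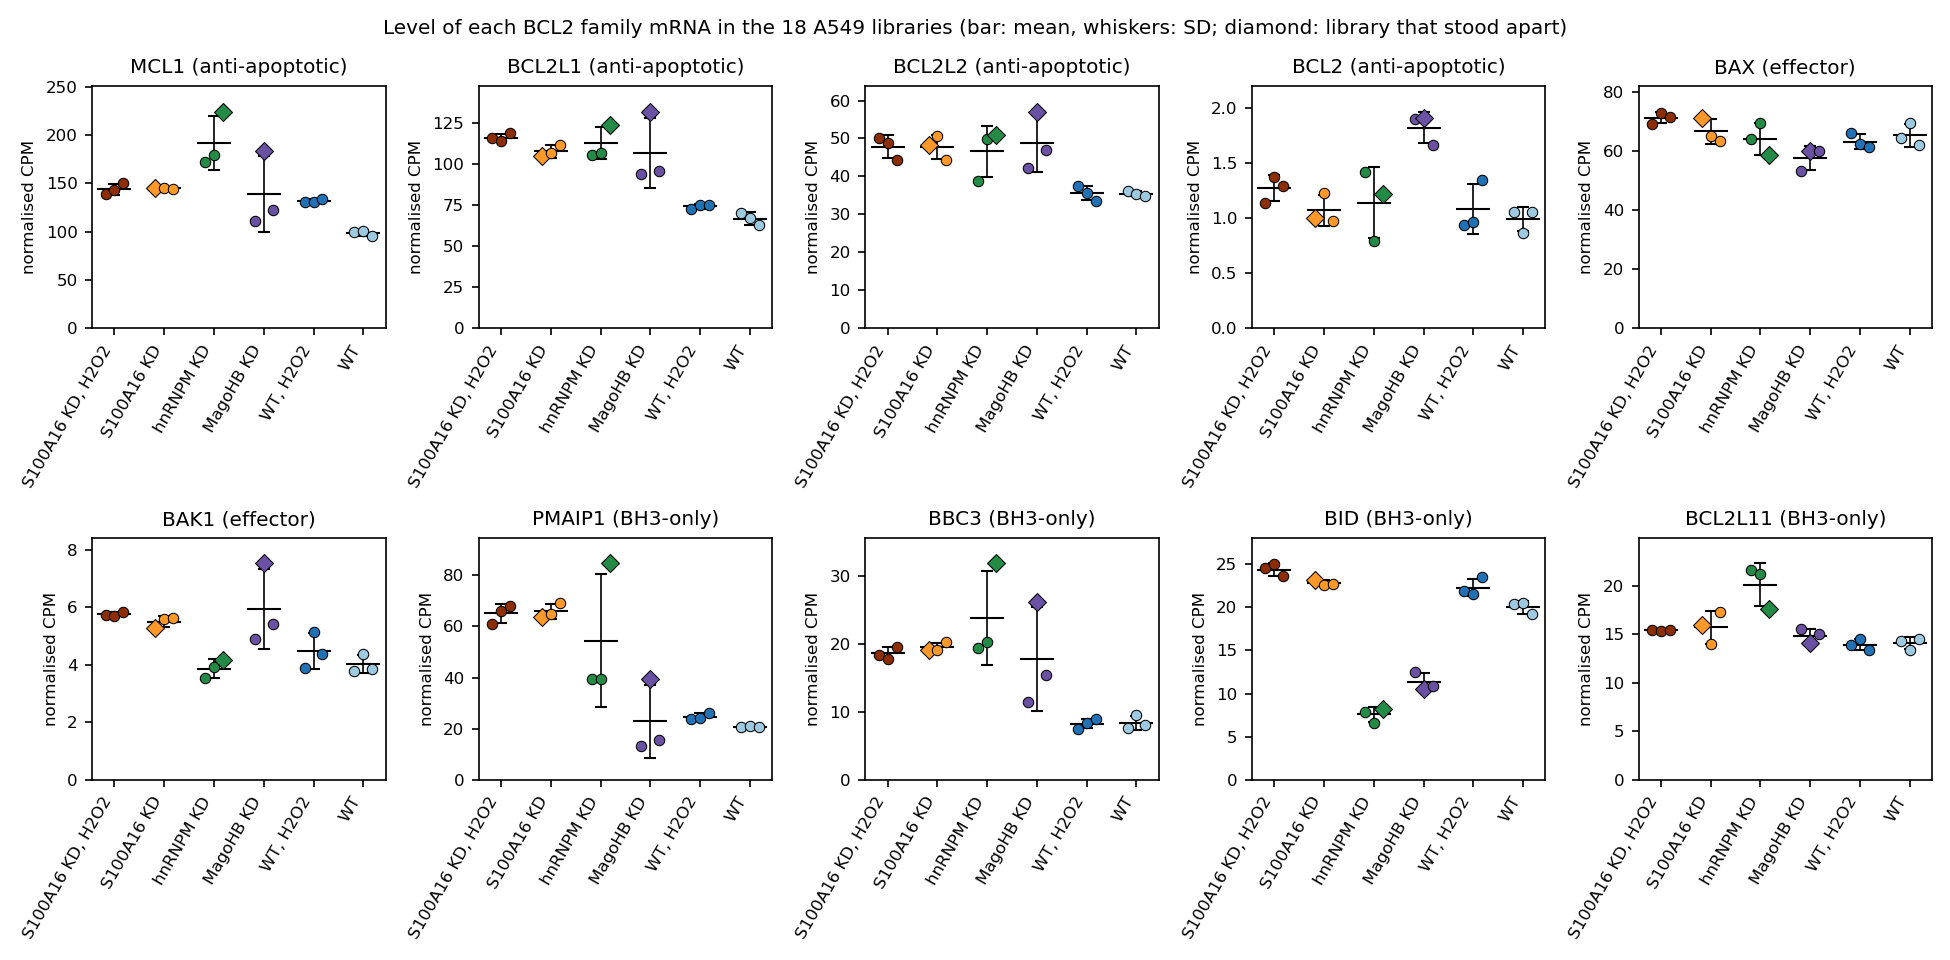
Normalised CPM of each member (one panel each) in the 18 libraries, with points for libraries, diamonds for the 3 libraries that stood apart, bars for group means and whiskers for the SD. The diamonds of the hnRNPM KD and MagoHB KD are the highest points of their groups for PMAIP1, at 84.7 and 39.4 CPM, and for MCL1 at 224 and 184 CPM.

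MCL1, at chr1:150574551-150579738 on the minus strand, encodes a short-lived anti-apoptotic protein that PMAIP1 neutralises. It had 145, 145 and 144 CPM in untreated S100A16 KD cells, 172, 179 and 224 CPM in the hnRNPM KD and 111, 184 and 122 CPM in the MagoHB KD, against 100, 101 and 95 CPM in untreated WT. Every KD library was above every WT library, with the hnRNPM KD highest. The rise was 1.46-fold in the S100A16 KD (adjusted p = 0.00363), 1.94-fold in the hnRNPM KD (adjusted p = 3.59e-05) and 1.41-fold with the MagoHB KD (adjusted p = 0.0089). The hnRNPM KD exceeded the MagoHB KD (log2 0.46, adjusted p = 0.0128), and the S100A16 KD was below the hnRNPM KD (log2 -0.41, adjusted p = 0.0235). Both of these calls were lost with scaling by total counts alone, at adjusted p of 0.0866 and 0.166, and each passed in 3 of the 6 fits that leave out 1 library (0.076 and 0.129 without hnRNPM KD replicate 3). Without the libraries that stood apart the MagoHB KD value was 0.24 on the log2 scale, against 0.49 with them, and it was called in both. Fitted to the 6 libraries concerned alone, the MagoHB KD value missed the threshold (log2 0.50, adjusted p = 0.0541), and so did the difference between hnRNPM and MagoHB KDs (adjusted p = 0.109).

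BCL2L1, at chr20:31664452-31723989 on the minus strand, which encodes BCL-XL, rose in each KD. It had 105, 107 and 112 CPM in untreated S100A16 KD cells, 106, 107 and 124 CPM in the hnRNPM KD and 94, 132 and 96.2 CPM in the MagoHB KD, against 70.4, 67.2 and 62.7 CPM in untreated WT. No KD library fell within the WT range. The log2 fold changes were 0.70 ± 0.09, 0.75 ± 0.09 and 0.69 ± 0.09 in that order of KDs, with adjusted p of 3.36e-06, 1.35e-06 and 5.93e-06. With 1 library left out in turn, the MagoHB KD value was 0.51 to 0.77 and was called in all 6 fits. Among the KDs the differences in BCL2L1 had 95% intervals of -0.24 to 0.13 (S100A16 over hnRNPM), -0.17 to 0.19 (S100A16 over MagoHB) and -0.12 to 0.25 (hnRNPM over MagoHB). Without the libraries that stood apart BCL2L1 was higher in the S100A16 KD than in the MagoHB KD by 0.18 (adjusted p = 0.00214) and higher in the hnRNPM KD than in the MagoHB KD by 0.16 (adjusted p = 0.00815). The antisense gene ABALON shares 1424 exonic bases with BCL2L1, 43% of its exon length, and had log2 fold changes of 0.72, 0.73 and 0.69 in the same comparisons. The sources used here do not say whether counting used strand, so reads of the pair cannot be told apart.

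BCL2L2, which encodes BCL-w, rose by 0.43 in the untreated S100A16 KD, 0.39 for the hnRNPM KD and 0.46 for the MagoHB KD on the log2 scale, with adjusted p of 0.00144, 0.00317 and 0.000991. Its means were 47.7 ± 3.21, 46.6 ± 6.77 and 48.7 ± 7.58 CPM in those KDs, against 35.4 ± 0.637 CPM in untreated WT. With 1 library left out in turn, the MagoHB KD value of BCL2L2 was 0.33 to 0.55 and was called in all 6 fits. The readthrough gene BCL2L2-PABPN1, which shares 813 exonic bases or 19.4% of the exon length of BCL2L2, moved in the opposite direction in the S100A16 KD alone. It had 81.3, 82.1 and 79 CPM in the untreated S100A16 KD, against 155, 165 and 167 CPM in WT (log2 -1.01, adjusted p = 2.8e-11), and its neighbour PABPN1, which codes for a poly(A)-binding protein, fell by 1.07 (adjusted p = 2.31e-10). In the hnRNPM and MagoHB KDs the readthrough gene had log2 fold changes of 0.12 and 0.13, with adjusted p of 0.115 and 0.106, and the S100A16 KD differed from both (log2 -1.13 and -1.14, adjusted p = 2.22e-12 and 2.63e-12). PABPN1 had 0.10 and 0.12 in the hnRNPM and MagoHB KDs (adjusted p = 0.318 and 0.227). The sources used here do not say how reads in shared exons were assigned. Reads of the readthrough gene, BCL2L2 and PABPN1 therefore cannot be told apart in any exons they share.

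BCL2, the founding member, was the scarcest of the members in A549. Its libraries held 1.9, 1.91 and 1.66 CPM in the MagoHB KD, against 1.05, 0.864 and 1.05 CPM in untreated WT. The MagoHB KD libraries were all above WT and also above every other library in the series. BCL2 rose by 0.88 ± 0.22 on the log2 scale in the MagoHB KD (adjusted p = 0.00206), and was lower in the S100A16 KD and in the hnRNPM KD than in the MagoHB KD (log2 -0.77 and -0.66, adjusted p = 0.00526 and 0.0156). The difference between the hnRNPM and MagoHB KDs missed the threshold with only the libraries compared (adjusted p = 0.0682) and without hnRNPM KD replicate 2 (log2 -0.46, adjusted p = 0.0984). Against untreated WT its log2 fold changes were 0.11 in the S100A16 KD and 0.23 in the hnRNPM KD, with 95% intervals of -0.33 to 0.56 and -0.22 to 0.67.

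Of the effectors, BAK1 rose in the S100A16 and MagoHB KDs, and the differences in BAX were small. BAK1 had 5.28, 5.61 and 5.63 CPM in untreated cells of the S100A16 KD and 4.89, 7.53 and 5.41 CPM in the MagoHB KD, against 3.8, 4.39 and 3.87 CPM in untreated WT, with no overlap. The log2 fold change was 0.45 in the S100A16 KD (adjusted p = 0.0103) and 0.57 with the MagoHB KD (adjusted p = 0.00219). Without the 3 libraries that stood apart these values were 0.46 and 0.36 (adjusted p = 0.00239 and 0.0233), and the S100A16 KD value missed the threshold without WT replicate 1 (adjusted p = 0.0502). The hnRNPM KD held 3.53, 3.92 and 4.18 CPM, within the range of WT at its upper end and below it at its lower end, with a log2 fold change of -0.05 and a 95% interval of -0.34 to 0.23. BAK1 was higher in the S100A16 KD than in the hnRNPM KD (log2 0.51, adjusted p = 0.00529) and lower in the hnRNPM KD than in the MagoHB KD (log2 -0.62, adjusted p = 0.000989). For BAX the largest called value against WT was the fall by 0.18 in the MagoHB KD (57.7 ± 3.92 CPM, against 65.4 ± 3.81 CPM, adjusted p = 0.0399), which turned to 0.03 with scaling by total counts alone and passed in 3 of the 6 fits that each leave out 1 library. BAX was also higher in the S100A16 KD than in the MagoHB KD (log2 0.21, adjusted p = 0.0182). This difference missed the threshold when low counts were kept (adjusted p = 0.0586), with only the libraries compared (adjusted p = 0.0649), without S100A16 KD replicate 1 (adjusted p = 0.113) and without MagoHB KD replicate 1 (adjusted p = 0.101).

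Scaled by gene length, the family had a few abundant and many scarce members. The deposited RPKM values, which divide counts by exon length and by depth, in untreated WT averaged 23.1 for BAX, 20.7 for MCL1, 18.4 for BCL2L1, 8.50 for PMAIP1, 7.74 for BCL2L2, 4.12 for BID, 2.40 for BBC3, 1.93 for BCL2L11, 1.66 for BAK1 and 0.0769 for BCL2. BAX was thus the most abundant member in untreated WT, while in WT with H2O2 MCL1 averaged 27.9 RPKM and BAX 22.5 RPKM. BCL2L1 stood at 0.852, 0.754 and 0.789 times BAX in the untreated WT libraries. In the KDs this order turned, with BCL2L1 at 1.15, 1.29 and 1.38 times BAX in the untreated S100A16 KD, 1.3, 1.21 and 1.65 times in the hnRNPM KD and 1.38, 1.71 and 1.25 times in the MagoHB KD. The ratio of MCL1 to PMAIP1 was 1.16, 1.14 and 1.06 in the untreated S100A16 KD, 2.24, 2.32 and 1.35 in the hnRNPM KD and 4.28, 2.39 and 4 in the MagoHB KD, against 2.47, 2.47 and 2.36 in untreated WT. It was below the WT range in every S100A16 KD and hnRNPM KD library, while the MagoHB KD had 2 libraries above that range and 1 within it. These ratios were not tested.

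**Figure D3:**
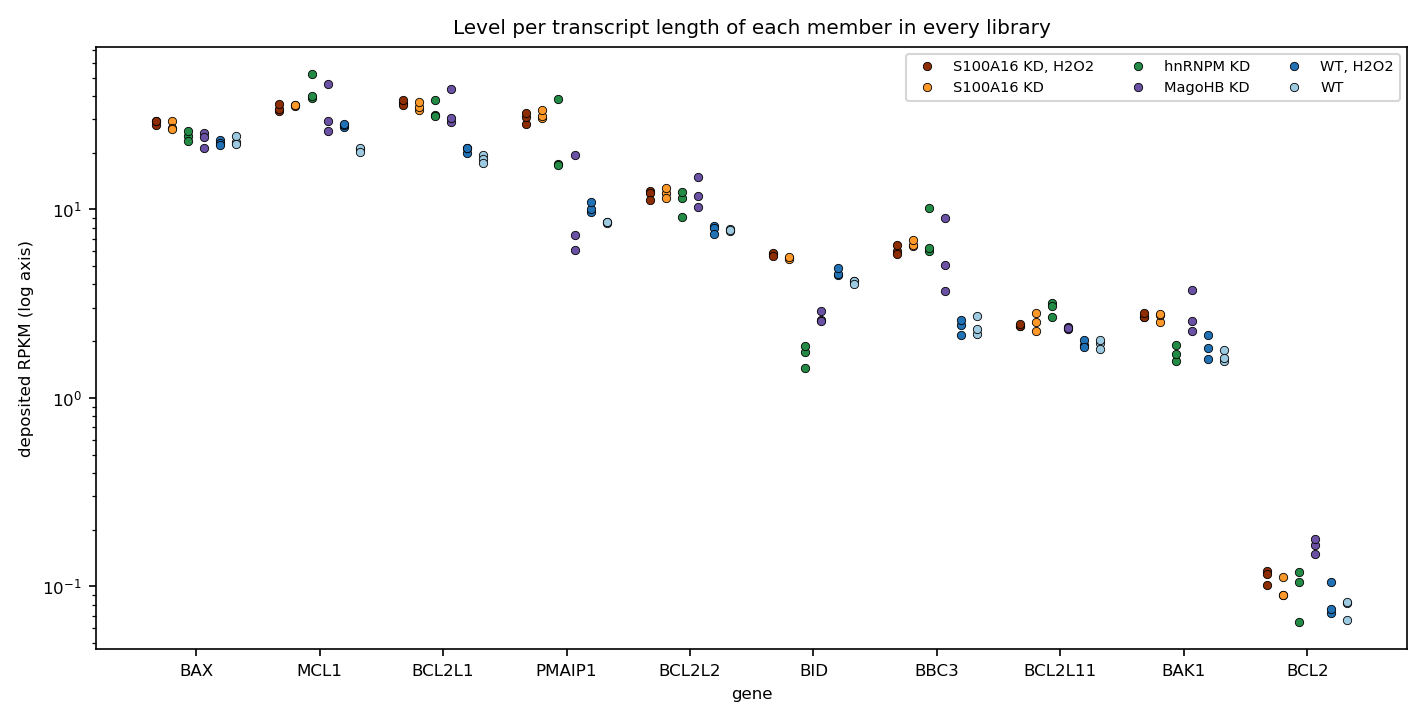
Deposited RPKM of each member (horizontal axis, ordered by the mean in untreated WT) in every library, on a logarithmic axis, with colours for the 6 groups. BAX, MCL1 and BCL2L1 lie near 20 RPKM in WT, at 23.1, 20.7 and 18.4, and BCL2 lies at 0.0769, below all others.

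The S100A16 KD was also compared with WT after H2O2 on both sides. PMAIP1 had 61, 66.2 and 68.1 CPM in the S100A16 KD with H2O2, against 23.9, 24 and 26.2 CPM in WT with H2O2 (log2 1.40, adjusted p = 0.00627). BBC3 had 18.4, 17.8 and 19.5 CPM in the S100A16 KD, against 7.5, 8.32 and 8.92 CPM in WT (log2 1.17, adjusted p = 0.00164). The groups did not overlap for either gene. BCL2L1 and BCL2L2 rose by 0.65 and 0.43 on the log2 scale (adjusted p = 8.43e-06 and 0.00158). BAX and BAK1 passed at 0.17 and 0.36 with adjusted p of 0.0394 and 0.0369, and both missed the threshold with DESeq2, at 0.084 and 0.0519, so that DESeq2 called 4 of the 10 members. With RLE size factors they also missed it, at 0.0739 and 0.0501, and of the 6 fits that each leave out 1 library BAX passed in 0 and BAK1 in 1. MCL1 had 139, 143 and 150 CPM in the S100A16 KD and 131, 131 and 134 CPM in WT, all under H2O2, and its log2 fold change of 0.13 had a 95% interval of -0.14 to 0.40 (adjusted p = 0.465). The MCL1 groups did not overlap, and MCL1 was called higher with only the libraries compared (log2 0.10, adjusted p = 0.023) and without the 3 libraries that stood apart (log2 0.11, adjusted p = 0.0154).

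H2O2 itself was compared within each genotype. In WT 0 of the 10 members passed the test, where 0.223% of all genes tested were called, and in the S100A16 KD 0 passed, where 0.0134% were called. The interaction of KD and H2O2, which asks whether H2O2 acted differently in the KD, was called for 0 members and for 0.0938% of all genes. At an unadjusted p under 0.05 there were 1, 0 and 1 members in these 3 comparisons, against 1477, 1515 and 1134 of the 22382 genes tested. DESeq2 called 0 members in each. The libraries did not overlap for 4 members in WT, all higher with H2O2 (9.13% of all genes), and for 3 in the S100A16 KD, all higher (12.4% of all genes).

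MCL1 was the member behind those unadjusted p values. It had 131, 131 and 134 CPM in WT with H2O2, against 100, 101 and 95 CPM in untreated WT, and 139, 143 and 150 CPM in the S100A16 KD with H2O2, against 145, 145 and 144 CPM in the untreated S100A16 KD. The WT groups did not overlap, while those of the S100A16 KD did. The log2 fold change in WT was 0.42 with a 95% interval of 0.14 to 0.69 (adjusted p = 0.507), and the interaction was -0.42 with an interval of -0.81 to -0.04 (adjusted p = 0.97). That test pools the spread of all 6 groups, and the SD of MCL1 was 28 CPM in the hnRNPM KD and 39.3 CPM in the MagoHB KD, against 0.774 to 5.58 CPM in the 4 groups this comparison is about. Fitted to the 6 WT libraries alone, MCL1 was called at 0.42 (adjusted p = 4.07e-11), and so were BCL2L1 at 0.16 and PMAIP1 at 0.25 (adjusted p = 0.0367 and 0.0132), where 2.80% of all genes were called. Without the 3 libraries that stood apart the same 3 members were called in WT, MCL1 at 0.41 (adjusted p = 1.29e-10), where 1.84% of all genes were called. The interaction of MCL1 was then -0.41 (adjusted p = 2.01e-05, 0.839% of all genes called), and in the fit to the 4 groups concerned it was -0.44 (adjusted p = 1.19e-07, 1.19% called). In the S100A16 KD no member was called with H2O2 under any of these fits, where between 0.0134% and 3.89% of all genes were.

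The 3 libraries that stood apart moved members unequally. In hnRNPM KD replicate 3, PMAIP1 was at 2.15 times the mean of the other 2 replicates, BBC3 at 1.6 times and MCL1 at 1.27 times, while BCL2L11 was at 0.822 and BAX at 0.879 times. In MagoHB KD replicate 2, PMAIP1 was at 2.73 times, BBC3 at 1.95, MCL1 at 1.58, BAK1 at 1.46 and BCL2L1 at 1.39 times, while BID was at 0.902 and BCL2L11 at 0.923 times. S100A16 KD replicate 1 held ratios between 0.907 (BCL2) and 1.11 (BAX). In the WT groups and the S100A16 KD with H2O2 the ratios of all members ran from 0.808 to 1.41. The labels name no batch, date or run for these libraries, and what moved with them was not tested beyond the values given.

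**Figure D4:**
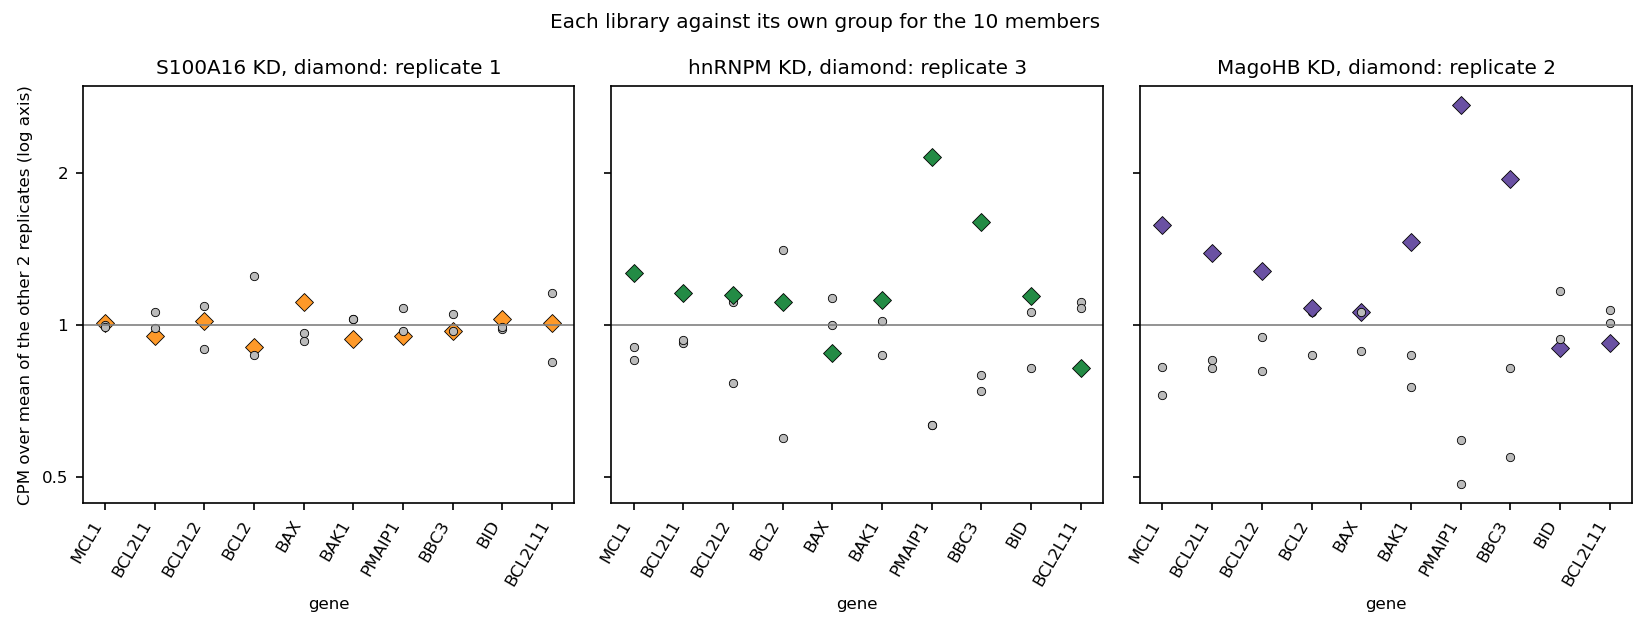
Ratio of each library to the mean of the other 2 replicates of its group for the 10 members, on a logarithmic axis, with coloured diamonds for the library that stood apart and grey points for the others. In the hnRNPM and MagoHB panels the diamonds of PMAIP1 lie highest, at 2.15 and 2.73, and in the S100A16 panel all diamonds lie between 0.907 and 1.11.

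Direct comparison of the KDs showed where members set them apart. Of the 10 members, 2 were higher and 2 lower in the S100A16 KD than in the hnRNPM KD, where 48.8% of all genes were called, 24.6% higher and 24.2% lower. Against the MagoHB KD, 3 were higher and 1 lower in the S100A16 KD, where 44.8% of all genes were called, 23.2% higher and 21.7% lower. In the hnRNPM KD 3 were higher and 3 lower than in the MagoHB KD, where 44.5% were called, 22.3% higher and 22.2% lower. PMAIP1 was higher in the S100A16 KD than in the MagoHB KD by 1.53 on the log2 scale (adjusted p = 0.00408), and higher in the hnRNPM KD than in the MagoHB KD by 1.25 (adjusted p = 0.0135), although the hnRNPM and MagoHB KD libraries overlapped and gave an adjusted p of 0.0716 when fitted alone and of 0.0791 without hnRNPM KD replicate 3. Without the libraries that stood apart these values were 2.19 and 1.43, and PMAIP1 was then also higher in the S100A16 KD than in the hnRNPM KD, by 0.75 (adjusted p = 6.84e-15), against 0.27 with them. Without those libraries 5, 7 and 9 of the members were called in these 3 comparisons, where 51.6%, 48.6% and 47.0% of all genes were.

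Ordered by group mean from low to high, most neighbouring groups overlapped. By mean CPM, PMAIP1 ran from untreated WT through the MagoHB KD, WT with H2O2 and the hnRNPM KD to the S100A16 KD with H2O2 and untreated. The place of the MagoHB KD rests on replicate 2, at 39.4 CPM, against 13.3 and 15.6 CPM. On the log2 scale the MagoHB KD mean of PMAIP1 was the lowest of the 6 groups. BID ran from the hnRNPM KD through the MagoHB KD to WT and then the S100A16 KD, with no overlap between the hnRNPM KD, the MagoHB KD and untreated WT. BCL2L1 had both WT groups lowest, untreated and then with H2O2 without overlap, and the 4 KD groups overlapped their neighbours from 107 to 116 CPM. For the other members the range of the log2 group means was 1.63 for BID, 1.44 for BBC3, 0.94 for MCL1, 0.80 for BCL2L1, 0.64 for BCL2, 0.54 for BAK1, 0.51 for BCL2L11, 0.44 for BCL2L2 and 0.31 for BAX.

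For the 3 members with the widest range, the genes whose 6 group means followed theirs most closely were sought among 11443 genes that averaged at least 5 CPM. Likeness was the root mean square difference of the centred log2 group means over the 6 groups. PMAIP1 was followed by CHST3 at 0.11 and LTBP1 at 0.12, and BBC3 by DOCK3 at 0.05 and CPT1B at 0.08. BID was followed by PTGR1 at 0.05 and AL135787.1 at 0.06, features that lie over each other on chromosome 9.

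The genes that surround the family were followed as 8 lists with 77 genes tested. Among the mitochondrial partners of BAX, BAK1 and BID, 4 of 4 genes fell in the S100A16 KD without and with H2O2, and 3 of 4 in each of the hnRNPM and MagoHB KDs. Of all genes tested, 24.8%, 24.7%, 23.8% and 22.3% fell in these comparisons. The median log2 fold change of the list was -0.80, -0.74, -0.32 and -0.49 in those comparisons, against 0.06, 0.06, 0.02 and 0.04 over all genes. VDAC1, a channel of the outer mitochondrial membrane, was at 197 ± 5.32 CPM in untreated cells of the S100A16 KD, 172 ± 15.2 CPM in the hnRNPM KD and 257 ± 61.2 CPM in the MagoHB KD, against 378 ± 7.72 CPM in WT (adjusted p = 2.87e-06, 3.2e-07 and 0.000743). Without the libraries that stood apart VDAC1 fell by 0.37 on the log2 scale in the MagoHB KD, against 0.56 with them. VDAC2, which binds BAK1, fell by 0.67 in the untreated S100A16 KD and by 0.40 in the hnRNPM KD. MTCH2, the receptor of truncated BID on mitochondria, fell by 1.16 in the untreated S100A16 KD and by 0.51 in the MagoHB KD, and VDAC3 fell by 0.23 in the hnRNPM KD, a call lost with scaling by total counts alone.

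More of the splicing regulators of BCL2L1 and MCL1 fell than rose in each KD. Of 21 tested, 0 rose and 17 fell in the untreated S100A16 KD, 1 rose and 14 fell under H2O2, 4 rose and 12 fell in the hnRNPM KD, and 3 rose and 9 fell in the MagoHB KD, where 24.8%, 24.7%, 23.8% and 22.3% of all genes fell in the same order. With only the WT and MagoHB KD libraries fitted, 2 rose and 5 fell. RBM8A, a subunit of the exon junction complex, fell by 0.93, 0.93, 0.43 and 0.41 on the log2 scale in those comparisons. PTBP1, a splicing repressor, fell by 0.62, 0.58 and 0.48 in the first 3. RNPS1, which joins the exon junction complex, rose by 0.42 in the hnRNPM KD, and RBM5 rose by 0.29 in the MagoHB KD. The files give counts per gene and carry no splice isoforms, so the long and short forms of BCL2L1 and MCL1, which differ in their effect on apoptosis, were not analysed here.

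Among the 8 transcription factors of BH3-only genes, as many rose as fell in the untreated S100A16 KD (3 and 3) and in the MagoHB KD (3 and 3), 2 rose and 2 fell under H2O2, and 2 rose and 3 fell in the hnRNPM KD. Of all genes tested, 27.6% rose and 24.8% fell in the untreated S100A16 KD, and 27.9% and 24.7% under H2O2. The shares were 25.4% and 23.8% in the hnRNPM KD, and 23.3% and 22.3% in the MagoHB KD. JUN rose by 1.69 for the hnRNPM KD and 1.70 for the MagoHB KD (adjusted p = 0.000192 and 0.000226), where its means were 89.2 ± 20.4 and 89.6 ± 46.5 CPM, against 27.6 ± 1.22 CPM in WT, and by 1.49 and 1.19 without the libraries that stood apart. FOXO3, which can drive BBC3 and BCL2L11, rose by 0.78 and E2F1 fell by 1.07 in the untreated S100A16 KD. DDIT3 (CHOP), a factor of the unfolded protein response, rose by 0.89 in the MagoHB KD, and by 0.64 without the libraries that stood apart. Of 9 genes for turnover of MCL1 and BH3-only proteins, FBXW7, a ubiquitin ligase subunit that marks MCL1 for destruction, rose by 0.66 in the S100A16 KD without H2O2 and 0.82 with it, by 1.29 in the hnRNPM KD and by 0.51 in the MagoHB KD. The list as a whole had 2 higher and 3 lower, 2 and 2, 3 and 4, and 3 and 3 in the 4 comparisons, with the same shares over all genes. USP9X, a deubiquitinase of MCL1, fell by 0.55 in the hnRNPM KD, and GSK3B, also of this list, fell by 0.83 there (adjusted p = 6.69e-09).

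Downstream of mitochondria the lists were mixed, in comparisons where 45.5% to 52.5% of all genes were called. Of 9 apoptosome and caspase genes, 1 rose and 4 fell in the untreated S100A16 KD and again under H2O2, 2 rose and 3 fell in the hnRNPM KD, and 3 rose and 2 fell in the MagoHB KD. CYCS, which encodes cytochrome c, fell to 312 ± 6.07 CPM in the untreated S100A16 KD, against 470 ± 11.8 CPM in WT (log2 -0.59, adjusted p = 2.11e-06). APAF1, which assembles the apoptosome, rose by 0.59 in the hnRNPM KD. Of 7 inhibitors of apoptosis and their antagonists, 2 rose and 1 fell in the untreated S100A16 KD, 2 rose and 2 fell under H2O2, 2 rose and 1 fell in the hnRNPM KD, and 2 rose and 3 fell in the MagoHB KD. BIRC3, which encodes cIAP2, rose to 174 ± 17.6 CPM in untreated cells of the S100A16 KD and 129 ± 39.8 CPM in the hnRNPM KD, against 61.2 ± 3.96 CPM in WT (adjusted p = 0.000347 and 0.00426). Without the libraries that stood apart BIRC3 rose by 0.79 on the log2 scale in the hnRNPM KD, against 1.08 with them. BIRC2 rose by 0.46, 0.79 and 0.54 in the untreated S100A16, hnRNPM and MagoHB KDs. DIABLO, an antagonist of these inhibitors that mitochondria release, fell by 0.93 in the untreated S100A16 KD. XIAP, also of this list, was lower than WT with less hnRNPM and with less MagoHB. Its log2 fold change was -0.50 both times (adjusted p = 1.05e-05 and 1.12e-05). BIRC6 was likewise lower with less MagoHB, at -0.47 (adjusted p = 3.28e-05).

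**Figure D5:**
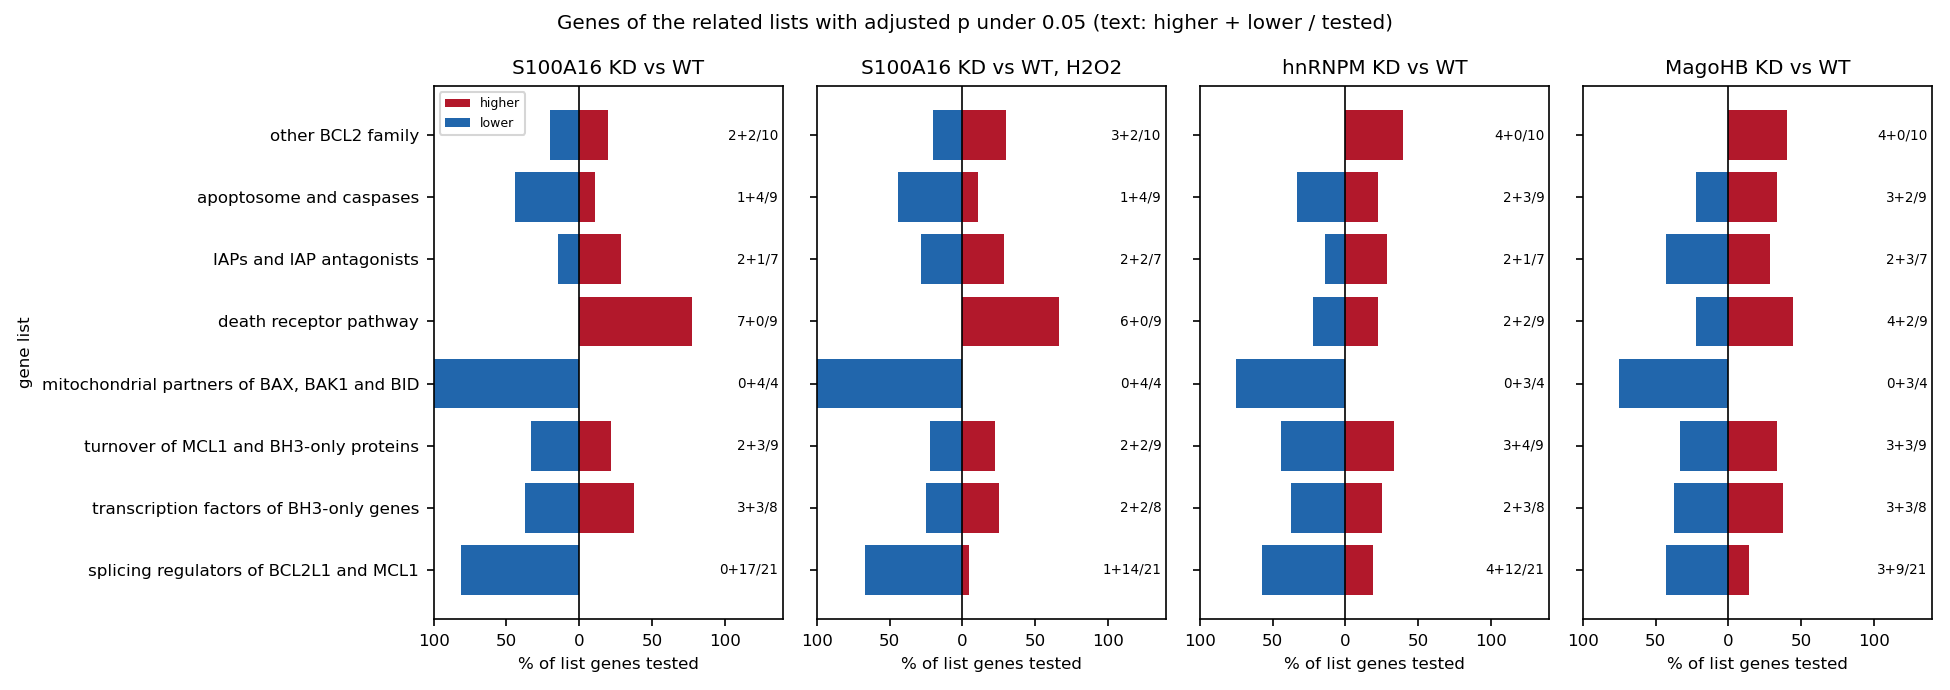
Share of the tested genes of 8 lists that were called higher (red, to the right of 0) or lower (blue, to the left) in the 4 comparisons of a KD with WT, with the counts printed beside the bars. The death receptor list has 7 of 9 genes higher in the untreated S100A16 KD, and the mitochondrial partners have 4 of 4 lower there. Of all genes tested, 27.6% were higher and 24.8% lower in that comparison.

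In the death receptor pathway 7 of 9 genes rose and 0 fell in the untreated S100A16 KD, and 6 rose and 0 fell under H2O2. In the hnRNPM KD 2 rose and 2 fell, and in the MagoHB KD 4 rose and 2 fell. Over all genes 27.6%, 27.9%, 25.4% and 23.3% rose in these comparisons. TNFSF10, the ligand TRAIL, rose to 3.84 ± 0.452 CPM in the untreated S100A16 KD, against 1.03 ± 0.104 CPM in WT (log2 1.90, adjusted p = 1.52e-08), and its receptor TNFRSF10B rose by 0.66. TRADD, an adaptor of TNF receptors, rose by 0.91 in the untreated S100A16 KD and 0.93 in the MagoHB KD, while TNFRSF1A fell by 0.75 for the hnRNPM KD and 0.65 for the MagoHB KD. Of 10 tested genes among 13 further BCL2 family genes, 2 rose and 2 fell in the untreated S100A16 KD, 3 rose and 2 fell under H2O2, and 4 rose and 0 fell in each of the hnRNPM and MagoHB KDs. BMF, another BH3-only gene, rose in all 4, to 6.62 ± 0.758 CPM in untreated S100A16 KD cells, 3.85 ± 1.31 CPM in the hnRNPM KD and 2.87 ± 1.46 CPM in the MagoHB KD, against 1.06 ± 0.113 CPM in WT. In the hnRNPM and MagoHB KDs its log2 fold changes were 1.86 and 1.45, against 1.53 and 0.94 without the libraries that stood apart. BCL2A1, an anti-apoptotic member, rose by 1.57 in the hnRNPM KD, and BOK, an effector relative, fell by 0.54 in the untreated S100A16 KD.

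With H2O2, edgeR called 0 of the 77 list genes in WT, in the S100A16 KD and for the interaction. At an unadjusted p under 0.05 there were 4, 9 and 4 of them, against 1477, 1515 and 1134 of the 22382 genes tested. DESeq2 called 1, 0 and 0 of the list genes.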

How the data were processed

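Poly(A) mRNA of 18 A549 libraries was sequenced, 3 in each of 6 groups. The authors deposited raw counts per gene and RPKM values per gene; the submitters' processing notes list DESeq2 1.32.0, StringTie 2.1.4, SAMtools 1.15.1, HISAT2 2.2.1 and FastQC 0.11.9, on GRCh38, with no role stated for each. The sources used here do not name the counting program, annotation or strand setting. The deposited RPKM values matched the deposited counts within a relative tolerance of 0.001 in 100.0% of 531539 values above 0. Only 18.6 to 22% of counts between 1 and 19 were odd, so counts halved and rounded down were tried, in case both mates of a pair were counted.

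Counts were fitted with edgeR 4.0.16 (TMM, filterByExpr, robust quasi-likelihood F test; R 4.3.3, limma 3.58.1) in 1 model of all 18 libraries, with Benjamini-Hochberg adjustment over 22382 genes and a threshold of 0.05; the script was tested on simulated data. The labels number replicates without naming separate cultures, so p-values measure the spread between libraries, which may be technical. Each SE is the size of the log2 fold change over the square root of its F statistic. The 95% intervals apply a normal quantile to that SE, so they are narrower than the F test implies. Marker sums are CPM by total counts, without TMM. Likeness used log2(CPM + 0.5). Alternatives were DESeq2 1.42.0, other size factors, total counts alone, no filter, a replicate block, fits of only the groups compared, and fits without single libraries or without the 3 that stood apart. Tables and plots used Python 3.11.15, numpy 2.4.6, pandas 2.3.3 and matplotlib 3.10.9. No per-sample column was left unused.

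The text names all members, up to 3 called genes of smallest adjusted p per list and comparison, 2 genes most like each of 3 members, the targeted genes and overlapping features. The members, lists and alternatives were chosen with earlier results of these data known. Promoters came from a RefSeq table of GRCh38.p14. Some genes and lists that were examined are not reported here.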

Additional observations from a re-analysis of the deposited data

How the results depend on the processing

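Of 1460 member values recomputed, 756 under other settings and 625 with 1 library left out kept their side of the threshold; 79 of these changed sign, with no call in either fit. Under other settings 15 lost the call, 27 gained it and 2 turned; with 1 library left out 27 lost it, 8 gained it and 0 turned. The values that turned were BAX in the MagoHB KD against WT, at 0.03 with total counts alone, and PMAIP1 there, at -0.52 without the 3 libraries that stood apart.

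Counts for H2O2 moved with the setting. In WT 3 members were called when only the libraries compared were fitted and 3 without the 3 libraries, against 0; for the interaction 2 and 1 were called, against 0. Over all genes H2O2 in WT gave 85 calls with no filter, 555 with only the libraries compared, 97 with DESeq2 and 417 without the 3 libraries, against 50. H2O2 in the S100A16 KD gave 25, 801, 54 and 364 in the same order, against 3, and the interaction gave 45, 256, 35 and 190, against 21. The S100A16 KD against the MagoHB KD had 7 members called without the 3 libraries, against 4, and the hnRNPM KD against the MagoHB KD had 3 with only the libraries compared and 9 without the 3 libraries, against 6. The cause was not tested.

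With 1 library left out in turn, H2O2 in the S100A16 KD gave 3 to 7 calls over all genes (7 without S100A16 KD untreated replicate 3), and the interaction 13 to 17 (13 without WT untreated replicate 3 or S100A16 KD H2O2 replicate 1). The S100A16 KD against the MagoHB KD had 3 to 7 members called, 7 without MagoHB KD replicate 2.

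Same-numbered libraries did not deviate together in the comparisons with WT and of H2O2, with correlations of -0.057 to 0.176. Between the hnRNPM and MagoHB KDs the correlations were 0.622, -0.392 and -0.529. Each of these 2 KDs held a library that stood apart, so the check cannot decide on pairing there. The numbers were not taken as pairs. With the replicate block 6 members were called in the S100A16 KD untreated and 6 under H2O2, 7 for hnRNPM and 8 for MagoHB, as without it, and 48, 4 and 20 genes for H2O2 in WT, in the S100A16 KD and for the interaction.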
